A study of Mus musculus with 36 samples.

Results

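The HoxD cluster is one of the mammalian clusters of homeobox genes and holds 9 protein-coding genes, Hoxd1, Hoxd3, Hoxd4, Hoxd8, Hoxd9, Hoxd10, Hoxd11, Hoxd12 and Hoxd13. These 9 of the 24411 genes in each RNA-seq table were taken by symbol, and their levels were followed in mesenchymal stem cells (MSCs) of 4 mouse tissues together with the ATAC-seq peaks over the cluster. Hox genes encode transcription factors that give cells a position along the body and limb axes, and they are switched on in the embryo in the order in which they lie on the chromosome. Cultured stromal cells often keep part of the Hox code of the site they came from. HoxD is best known for patterning the limb and digits, where its posterior genes (Hoxd9 to Hoxd13) read enhancers in the gene deserts on either side of the cluster, while the anterior genes (Hoxd1 to Hoxd4) are used nearer the head. Polycomb proteins keep the cluster silent where it is not used.

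The cells were MSCs of 8-week-old C57BL6/J mice, grown on collagen-coated dishes for at most 3 passages, from femoral bone marrow (fBM-MSCs), vertebral bone marrow (vBM-MSCs), adipose tissue (A-MSCs) and lung (P-MSCs), all kept in MesenCult medium, and the adipose and lung tissues were first digested with collagenase. The seeding medium of all groups held MesenPure and a Rock inhibitor, and the groups differed in tissue alone by their labels. RNA-seq covered 2 vBM-MSC libraries and 3 of every other tissue, with 19569650 to 40517739 expected counts each, and the vBM-MSC library of replicate 3 was not analysed here. ATAC-seq, which cuts open chromatin with the Tn5 transposase, gave 1 peak list per tissue made from 3 replicates that were each sequenced in 2 runs and then pooled, so its values have no replicate error. The MSC surface genes Itgb1, Cd44, Ly6a and Vcam1 reached at least 1 TPM (length-scaled transcript abundance) in all 11 libraries, so 4 of 4 markers were present in each tissue. The negative markers Pecam1, Cd34 and Ptprc summed to 10.26 to 79.19 TPM in fBM-MSCs, mostly Cd34, and to 1.19 to 7.87 TPM elsewhere. Markers of other cell types also differed between tissues. All 4 mesothelial markers (Wt1, Msln, Upk3b and Krt19) were at 1 TPM or more in A-MSCs, with a summed level of 46.6 to 55.74 TPM. P-MSCs summed to 54.04 to 62.91 TPM, mostly Krt19, the marrow libraries to 1.84 to 12.27 TPM, and Wt1 was at 0 in all 3 of these tissues. The epithelial list (Epcam, Cdh1, Krt8, Krt18 and Sftpc) summed to 22.67 to 48.51 TPM in A-MSCs and to at most 1.32 TPM in the other tissues, with Sftpc at 0 in all 4. The A-MSC sum was mostly Krt8 and Krt18, with mean levels of 0.32 TPM for Epcam and 0.07 TPM for Cdh1. The macrophage list summed to 14.73 to 52.09 TPM and had its highest library in fBM-MSCs. Lyz2 and Cd68 gave most of the fBM-MSC sum, and Adgre1 was at 0 in that tissue. Csf1r had its highest mean in A-MSCs (5.9 TPM) and Cd14 in P-MSCs (5.09 TPM). The endothelial list ranged from 3.12 to 51.46 TPM in A-MSCs and reached at most 8.1 TPM in other tissues. Most of its A-MSC sum was Emcn (2.32 to 49.5 TPM), whereas Kdr had its highest mean in P-MSCs (2.56 TPM). The erythroid list stayed at or under 0.13 TPM. The part of these cells in the HoxD values was not tested, and in bulk RNA fewer cells that use a gene and less RNA per cell cannot be told apart.

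The 9 genes lie on chromosome 2 of mm10, all on the forward strand, over 96.9 kb from the start of Hoxd13 (chr2:74668225) to the end of Hoxd1 (chr2:74765142). Regulatory DNA of the cluster is shown first, because the highest peaks of fBM-MSCs and A-MSCs in the cluster lay at Hoxd10 and Hoxd8. The sequences are of the RefSeq assembly GRCm38.p6, forward strand, and capitals mark CpG dinucleotides, the sites of DNA methylation that cluster at many promoters. The 250 bases before the Hoxd10 start (chr2:74691641-74691890, intergenic) hold 20 CpG and the highest peak summit of the cluster. The 250 bases before the Hoxd9 start (chr2:74697513-74697762, intergenic) hold 13 CpG. The bases around the Hoxd8 summit (chr2:74705282-74705482) lie in an intron of the longer Hoxd8 transcript, just before the start of the shorter one, and hold 38 CpG. The 250 bases before Hoxd4 (chr2:74721728-74721977, in an intron of Hoxd3) are shown as a start with no summit within 1 kb in any list, with 3 CpG.
Hoxd10: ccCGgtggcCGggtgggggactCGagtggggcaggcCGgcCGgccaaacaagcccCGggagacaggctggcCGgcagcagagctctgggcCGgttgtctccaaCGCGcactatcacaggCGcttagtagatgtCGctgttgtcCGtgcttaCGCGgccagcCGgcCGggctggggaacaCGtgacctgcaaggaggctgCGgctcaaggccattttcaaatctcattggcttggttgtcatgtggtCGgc
Hoxd9: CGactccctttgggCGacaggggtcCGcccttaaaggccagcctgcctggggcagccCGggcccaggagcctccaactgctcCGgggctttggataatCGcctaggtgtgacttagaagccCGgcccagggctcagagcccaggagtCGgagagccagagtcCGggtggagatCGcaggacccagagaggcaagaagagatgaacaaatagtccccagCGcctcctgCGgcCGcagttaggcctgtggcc
Hoxd8: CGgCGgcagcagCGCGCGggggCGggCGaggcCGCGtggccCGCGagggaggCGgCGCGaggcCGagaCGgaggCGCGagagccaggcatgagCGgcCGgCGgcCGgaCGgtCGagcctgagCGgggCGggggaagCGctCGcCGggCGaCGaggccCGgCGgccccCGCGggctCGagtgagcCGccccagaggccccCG
Hoxd4: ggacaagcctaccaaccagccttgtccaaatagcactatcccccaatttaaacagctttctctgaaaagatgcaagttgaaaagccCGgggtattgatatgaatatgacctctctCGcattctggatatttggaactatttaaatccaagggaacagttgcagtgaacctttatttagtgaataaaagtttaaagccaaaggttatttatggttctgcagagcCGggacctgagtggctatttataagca
Over each RefSeq promoter window (250 before and 50 after a start), the observed CpG count was 0.75 times that expected from base composition at Hoxd10, 0.57 at Hoxd9, 0.34 at Hoxd4 and 0.37 at the first Hoxd8 start. The median of 32851 windows was 0.38. The promoters of Hoxd13, Hoxd3, Hoxd1 and the second Hoxd11 start were above Hoxd10, at 0.9, 0.92, 0.8 and 0.88, although these genes gave few or no counts. Hoxd12 stood at 0.57 and the first Hoxd11 start at 0.26.

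Of the 9 HoxD genes, the middle ones, Hoxd8, Hoxd9 and Hoxd10, were transcribed in MSCs of femoral marrow, vertebral marrow and adipose tissue, and no count of any of them came from the lung. Hoxd8, a trunk-level Hox gene, gave the highest level of the cluster in each of these tissues. The 3 fBM-MSC libraries held 1.78, 2.35 and 3.32 TPM of it, and the 2 vBM-MSC libraries 2.20 and 3.23 TPM. A-MSCs stood at 2.76, 2.47 and 2.58 TPM, and all 3 P-MSC libraries at 0. Every library outside the lung was above 1 TPM, the lung did not overlap with them, and the ranges of the other three tissues lay across each other. Behind these levels were 36 to 126 expected counts in fBM-MSCs, 64 and 113 in vBM-MSCs and 87 to 101 in A-MSCs. Hoxd9, a posterior gene used in the upper limb and the lower trunk, stood at 1.40, 1.36 and 2.39 TPM in fBM-MSCs. Its levels were 0.26 and 1.19 TPM in vBM-MSCs, 0.57, 1.11 and 0.58 TPM in A-MSCs and 0 in each P-MSC library. The 3 fBM-MSC libraries were thus above all others, with 1.36 TPM as their lowest value and 1.19 TPM as the highest elsewhere. Hoxd10, which also acts in the hindlimb and the lumbar spinal cord, gave 1.71, 0.42 and 0.76 TPM in fBM-MSCs and 0.25 and 1.39 TPM in vBM-MSCs. In A-MSCs it gave 0.06, 0.75 and 0.75 TPM, and in P-MSCs 0. Outside the lung, its libraries differed more within fBM-MSCs and vBM-MSCs than the tissue means did from each other, down to 2 counts in A-MSC replicate 1.

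The other 6 genes were near or at 0 everywhere. Hoxd12, a digit gene, had no count in any library, which allows at most 0.0081 CPM (counts scaled to library size) over all 11. Hoxd1, the most anterior gene, had 1 count in total, in A-MSC replicate 1. Hoxd3, an anterior gene of neck and upper trunk, had 9 counts, of which 8 came from A-MSC replicates 2 and 3. Hoxd11, which shapes the forearm and lower leg with Hoxa11, had 20 counts, 5 of them in fBM-MSC replicate 1 and 10 in A-MSC replicate 3. Hoxd4 and Hoxd13 had their counts in 3 libraries each. Hoxd4, an anterior gene of the neck, gave 24 of its 31 counts in vBM-MSC replicate 2 (0.42 TPM) and none in vBM-MSC replicate 1. Hoxd13, the most posterior gene and a regulator of digits, gave 22 counts in vBM-MSC replicate 2, 10 in A-MSC replicate 3 and 12 in P-MSC replicate 1 (0.40, 0.17 and 0.19 TPM), and 0 in the other 8 libraries. The 12 Hoxd13 counts were the whole HoxD signal of the lung. The vBM-MSC libraries stood apart from each other also in the sum over the 9 genes, at 2.73 and 6.63 TPM, and in the sum over the HoxA genes, at 15.36 and 49.59 TPM.

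**Figure D1:**
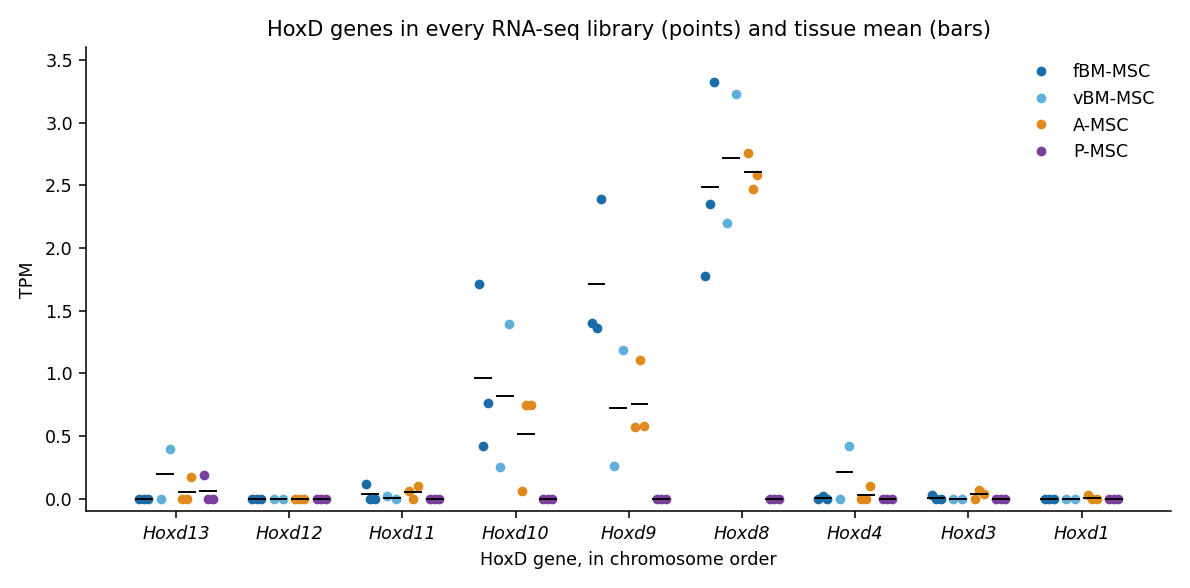
TPM of the 9 HoxD genes (x axis, in chromosome order) in each of the 11 RNA-seq libraries, coloured by tissue, with the tissue mean as a bar. Hoxd8, Hoxd9 and Hoxd10 carry the signal of fBM-MSCs, vBM-MSCs and A-MSCs, Hoxd8 reaches 3.32 TPM, and the P-MSC libraries are at 0 except for Hoxd13 in replicate 1.

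Averaged over libraries, Hoxd8 stood at 2.48 ± 0.78 TPM in fBM-MSCs (SD, n = 3), 2.72 ± 0.73 in vBM-MSCs (n = 2) and 2.60 ± 0.15 in A-MSCs (n = 3). Hoxd9 stood at 1.72 ± 0.58, 0.72 ± 0.66 and 0.75 ± 0.31 TPM and Hoxd10 at 0.96 ± 0.67, 0.82 ± 0.81 and 0.52 ± 0.40 TPM in the same order. In each of the 3 tissues the mean levels in TPM ran from Hoxd8 to Hoxd9 to Hoxd10, except that Hoxd10 was above Hoxd9 in vBM-MSCs. The tissue means of Hoxd8 and of Hoxd10 outside the lung differed by less than the SDs of fBM-MSCs and vBM-MSCs. The fBM-MSC mean of Hoxd9 stood above the other two by more than any of the SDs, while vBM-MSCs and A-MSCs differed by less.

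To test the tissues against each other, edgeR's quasi-likelihood test was run on the expected counts of the 12509 genes with at least 1 CPM in at least 2 libraries. Hoxd8, Hoxd9 and Hoxd10 passed this filter and the other 6 HoxD genes were not tested. Because a gene passes through the tissues where it is high, the count of called genes says little of the cluster. Hoxd8 had 8 libraries over the filter, Hoxd9 had 5, and Hoxd10 had 2, fBM-MSC replicate 1 and vBM-MSC replicate 2. Across the 4 tissues together all 3 were called by edgeR, with adjusted p = 7.02e-05 for Hoxd8, 0.00116 for Hoxd9 and 0.0179 for Hoxd10, against 60.6% of all tested genes called. The call of Hoxd10 was lost without P-MSC replicate 1 (adjusted p = 0.051 by edgeR) and with limma on log2(TPM + 1) (adjusted p = 0.0614). In the comparison of fBM-MSCs with P-MSCs, 3 of 3 were higher in fBM-MSCs, where 24.7% of all tested genes were higher in fBM-MSCs and 23% in P-MSCs. In that of vBM-MSCs with P-MSCs, 3 of 3 were higher in vBM-MSCs (background 21%, and 17.7% higher in P-MSCs). For A-MSCs against P-MSCs, 3 of 3 were higher in A-MSCs (background 16%, and 14.9% higher in P-MSCs). These 3 comparisons share the P-MSC libraries.

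Since the lung had no count of Hoxd8, Hoxd9 or Hoxd10 in 3 libraries, the fold is a lower bound. It is set by 3 counts over the 3 P-MSC libraries (0.0283 CPM) and by the pooled level of the other tissue. The spread between libraries of the other tissue is left out of it. Hoxd8 was at least 94.6-fold lower in P-MSCs than in fBM-MSCs, at least 94.9-fold lower than in vBM-MSCs and at least 92.3-fold lower than in A-MSCs. The adjusted p-values of edgeR were 1.75e-05, 3.36e-05 and 6.95e-05. The Hoxd8 bounds ran from 57.0 to 111.5 when 1 library of either tissue was left out, and those without a P-MSC library were the lowest, since the floor then rests on 2 lung libraries. Hoxd9 was at least 82.6-fold, 34.3-fold and 35.0-fold lower than in fBM-MSCs, vBM-MSCs and A-MSCs, with adjusted p = 0.00024, 0.00107 and 0.00133 by edgeR. Without vBM-MSC replicate 2 the vBM-MSC bound of Hoxd9 was 11.8-fold, and without P-MSC replicate 1 the 3 bounds were 51.0-fold, 21.2-fold and 21.6-fold. For Hoxd10 the bounds were 33.5-fold, 33.3-fold and 21.4-fold and the adjusted p-values of edgeR 0.00429, 0.00805 and 0.0127. The 95% intervals of edgeR for Hoxd10 reached down to log2 fold changes of 4.18, 3.73 and 3.36, which is below these bounds. Without vBM-MSC replicate 2 the vBM-MSC bound of Hoxd10 was 9.4-fold. Without P-MSC replicate 1 the 3 bounds of Hoxd10 were 20.7-fold, 20.5-fold and 13.2-fold. The Hoxd10 calls against vBM-MSCs and A-MSCs were lost on the log2(TPM + 1) scale with limma, with adjusted p = 0.0719 and 0.15.

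Among fBM-MSCs, vBM-MSCs and A-MSCs, none of Hoxd8, Hoxd9 and Hoxd10 was called by edgeR in any of the 3 comparisons, and none had an unadjusted p under 0.05. DESeq2 made no call either, and limma on log2(TPM + 1) made 1, given with Hoxd9. The background was 5.24% and 7.56% of tested genes (higher in fBM-MSCs and in vBM-MSCs) for the marrow sites, 20.6% and 20.3% (higher in fBM-MSCs and in A-MSCs) for fBM-MSCs against A-MSCs, and 13.2% and 12.4% (higher in vBM-MSCs and in A-MSCs) for vBM-MSCs against A-MSCs. The log2 fold change of Hoxd8 was -0.04 between fBM-MSCs and vBM-MSCs (95% interval -1.17 to 1.09), -0.14 between fBM-MSCs and A-MSCs (-1.15 to 0.87) and -0.10 between vBM-MSCs and A-MSCs (-1.23 to 1.03). Its differences were thus bounded to little more than 1 log2 unit either way. Hoxd9 was nominally highest in the femur, with a log2 fold change of 1.33 against vBM-MSCs (-0.54 to 3.19, adjusted p = 0.337 by edgeR) and 1.11 against A-MSCs (-0.50 to 2.73, adjusted p = 0.244 by edgeR). The first was 0.66 without vBM-MSC replicate 1 and 2.63 without vBM-MSC replicate 2, with no call in either. In the comparison with A-MSCs, limma on log2(TPM + 1) called Hoxd9, with an adjusted p of 0.0405. Hoxd10 was the least well bounded, with intervals from -2.35 to 3.05, from -1.60 to 3.24 and from -2.19 to 3.13, so a difference of several fold could not be seen at these counts.

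**Figure D2:**
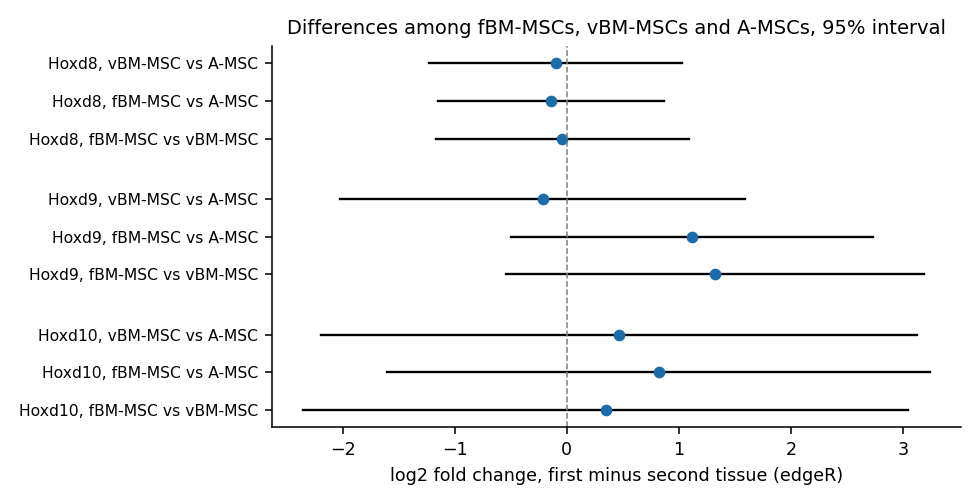
Log2 fold changes of Hoxd8, Hoxd9 and Hoxd10 (points, x axis) with 95% intervals (lines) between fBM-MSCs, vBM-MSCs and A-MSCs, from edgeR. All 9 intervals include 0, and those of Hoxd8 are the shortest.

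Genes of the same position number in the different Hox clusters (paralogues) are close in sequence, and RSEM can divide reads that fit several of them. All HoxD counts were whole numbers in every library (within 0.005), so no divided read was seen among them. Summed over the whole cluster, the HoxD level averaged 5.22 TPM in fBM-MSCs (libraries from 4.15 to 6.47), 4.68 TPM in vBM-MSCs (2.73 and 6.63), 4.07 TPM in A-MSCs (3.48 to 4.40) and 0.06 TPM in P-MSCs (0 to 0.19). HoxC also had its low tissue in the lung, at 48.51 ± 4.94, 53.59 ± 11.98, 46.28 ± 6.07 and 1.44 ± 0.22 TPM (SD) in the same order. HoxA, at 46.90 ± 7.56, 32.48 ± 24.2, 33.44 ± 6.60 and 43.42 ± 3.92 TPM, had a lung mean between those of the other tissues. HoxB, at 7.31 ± 8.04, 87.04 ± 19.23, 48.51 ± 11.75 and 61.88 ± 4.63 TPM, had its low tissue in the femur. The lung thus had HoxA and HoxB transcripts with little of HoxC and HoxD. Within HoxA the genes differed, with lung means of 20.59 TPM for Hoxa5 and of 0.13, 0.05 and 0.01 TPM for Hoxa9, Hoxa10 and Hoxa11. The low lung levels of Hoxd9 and Hoxd10 were thus seen in their HoxA paralogues too, whereas Hoxb9 stood at 2.49 TPM in the lung. Of the genes tested, 7 of 7 HoxC genes were higher in A-MSCs than in P-MSCs, 7 of 7 higher in vBM-MSCs and 6 of 7 higher in fBM-MSCs, against the 16%, 21% and 24.7% above. Hoxa10 and Hoxc10, the paralogues of Hoxd10, reached 22.96 ± 4.96 and 19.44 ± 0.18 TPM in fBM-MSCs and 2.33 ± 2.52 and 2.07 ± 2.09 TPM in vBM-MSCs. Their log2 fold changes between these sites were 3.42 (SE 0.91) and 3.32 (SE 0.67), with adjusted p = 0.0305 and 0.0129 by edgeR. Hoxd10 had 0.35 there, with an interval from -2.35 to 3.05, and the difference between the paralogues was not tested. In group 8, Hoxc8 stood at 2.67 ± 0.67 TPM in fBM-MSCs and 18.48 ± 0.96 in vBM-MSCs, while the level of Hoxd8 was 2.48 ± 0.78 and 2.72 ± 0.73. In group 9, Hoxa9 (6.85 ± 0.89 TPM) and Hoxd9 (1.72 ± 0.58 TPM) had their highest tissue mean in fBM-MSCs, whereas Hoxb9 was highest in vBM-MSCs (14.14 TPM, against 1.47 in fBM-MSCs) and Hoxc9 in A-MSCs (6.23 TPM, against 5.33 in fBM-MSCs).

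**Figure D3:**
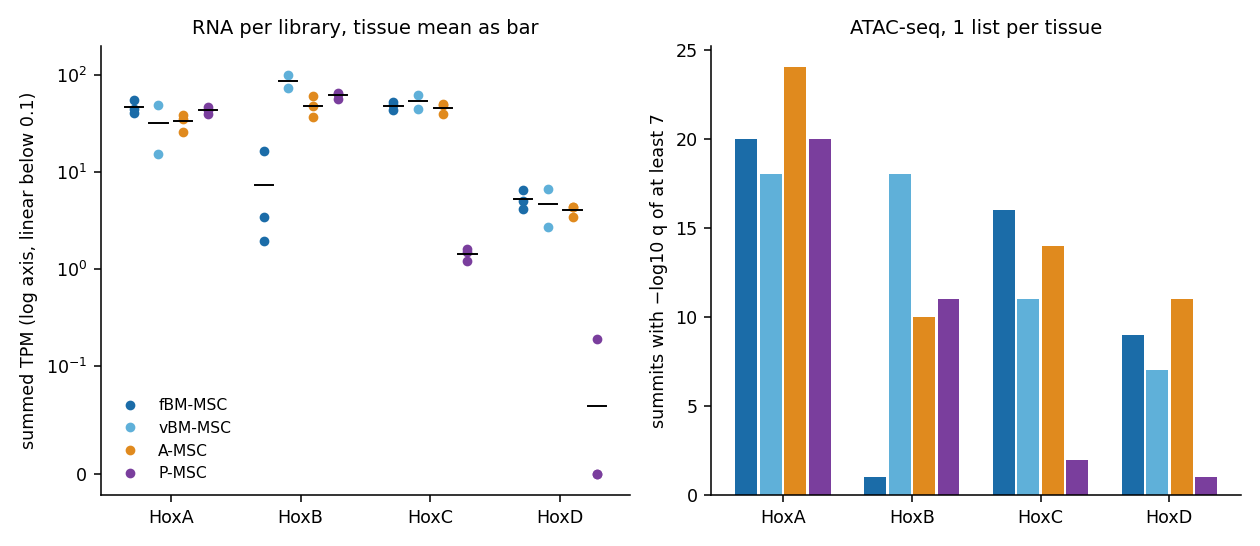
Left, TPM summed over the genes of each Hox cluster in each library (points) with tissue means (bars), on an axis that is logarithmic above 0.1. Right, the number of ATAC-seq summits with −log10 q of at least 7 in each cluster per peak list; HoxD has 9, 7, 11 and 1 in fBM-MSCs, vBM-MSCs, A-MSCs and P-MSCs, and HoxC 16, 11, 14 and 2.

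In chromatin, the same tissues differed. The threshold the study set for clustering, a −log10 q of at least 7, left 9, 7, 11 and 1 summits in HoxD in fBM-MSCs, vBM-MSCs, A-MSCs and P-MSCs, out of 64300, 59536, 71345 and 64057 in the whole lists. Per 100 kb this was 9.29, 7.22, 11.35 and 1.03, against 2.61, 2.42, 2.90 and 2.60 over the autosomes. At this threshold the summits covered 8, 6, 8 and 1 regions. With all deposited summits the counts were 17, 12, 17 and 6. Within 1 kb of a start, 5 of the 9 HoxD genes had a summit over the threshold in fBM-MSCs and in A-MSCs, 4 had one in the vBM-MSC list and 1 in that of P-MSCs. Over all 22153 genes with a curated start on the autosomes, 52.2%, 53.2%, 54.2% and 53.3% had one, and among the genes with no count in the tissue 7.8%, 9.2%, 9.9% and 8.2%. In HoxC, the promoters with a summit numbered 5, 4, 4 and 1 of 9.

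The fold enrichments of a list were whole multiples of 0.368 in all 4 lists (all values under 50, within 0.01 of a step), so 1 step had the same size in every tissue, and the intervals below take a step as 1 read and cover counting error only. Positions are given for the highest summit of a region. The folds are the highest of each list in that region, and the summits of the other lists can lie elsewhere in it. The highest summit of the cluster, in A-MSCs, lay at -152 bases from the Hoxd10 start, in the sequence shown above. The highest fold of this region was 10.3 in fBM-MSCs (28 steps, 95% interval 6.84 to 14.89) and 7.73 in vBM-MSCs (4.78 to 11.81). It was 14.72 in A-MSCs (10.51 to 20.04) and 4.41 in P-MSCs (2.28 to 7.71), below the threshold there. The adipose and lung intervals did not overlap. At Hoxd8, the A-MSC summit lay at -107 bases from the second start. The region had folds of 9.93, 6.62 and 11.04 in fBM-MSCs, vBM-MSCs and A-MSCs and 4.05 in P-MSCs (2.02 to 7.24). The adipose interval (7.45 to 15.76) was above that of the lung. At Hoxd9 the A-MSC summit lay 307 bases into the gene in a coding exon. The region had folds of 6.99, 6.62 and 8.83, and 5.15 in P-MSCs, so that all 4 intervals overlapped. Hoxd9 had no lung transcripts, and its lung summit stood at a −log10 q of 6.28, as did that in Hoxd3os1.

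Open chromatin was not confined to the transcribed genes. A region at the Hoxd3 start had folds of 6.99, 6.99 and 8.83 in fBM-MSCs, vBM-MSCs and A-MSCs. Its highest summit, in A-MSCs, lay 240 bases after the start, in the 5′ UTR. In vBM-MSCs the fold of 6.99 was at chr2:74711960, just before the start, and the summit nearer to that of A-MSCs had 5.15. This region was not listed in P-MSCs, while Hoxd3 gave 9 counts in all. A second one in a Hoxd3 intron, in an exon of the antisense RNA Hoxd3os1, had folds of 8.46, 7.36 and 10.67, and 5.15 in P-MSCs. Hoxd3os1 had 8 counts in all libraries. Of 18 regions listed in at least 1 tissue over the cluster, 11 passed the threshold somewhere, 5 passed it in fBM-MSCs, vBM-MSCs and A-MSCs and not in P-MSCs, and none passed in all 4 tissues. The 5 were those of Hoxd10, Hoxd9, Hoxd8, the Hoxd3 start and Hoxd3os1, all between the Hoxd10 start and that intron of Hoxd3. P-MSCs had the lowest fold in 4 of the 5 regions that all 4 lists held. The exception was the Hoxd1 start, with folds of 3.68, 4.05, 5.15 and 5.52 from fBM-MSCs to P-MSCs, the only lung summit over the threshold, and its 4 intervals overlapped. Hoxd12 and Hoxd4 had no summit within 1 kb of their starts in any list, and Hoxd13 had one below the threshold in fBM-MSCs only (fold 4.41).

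**Figure D4:**
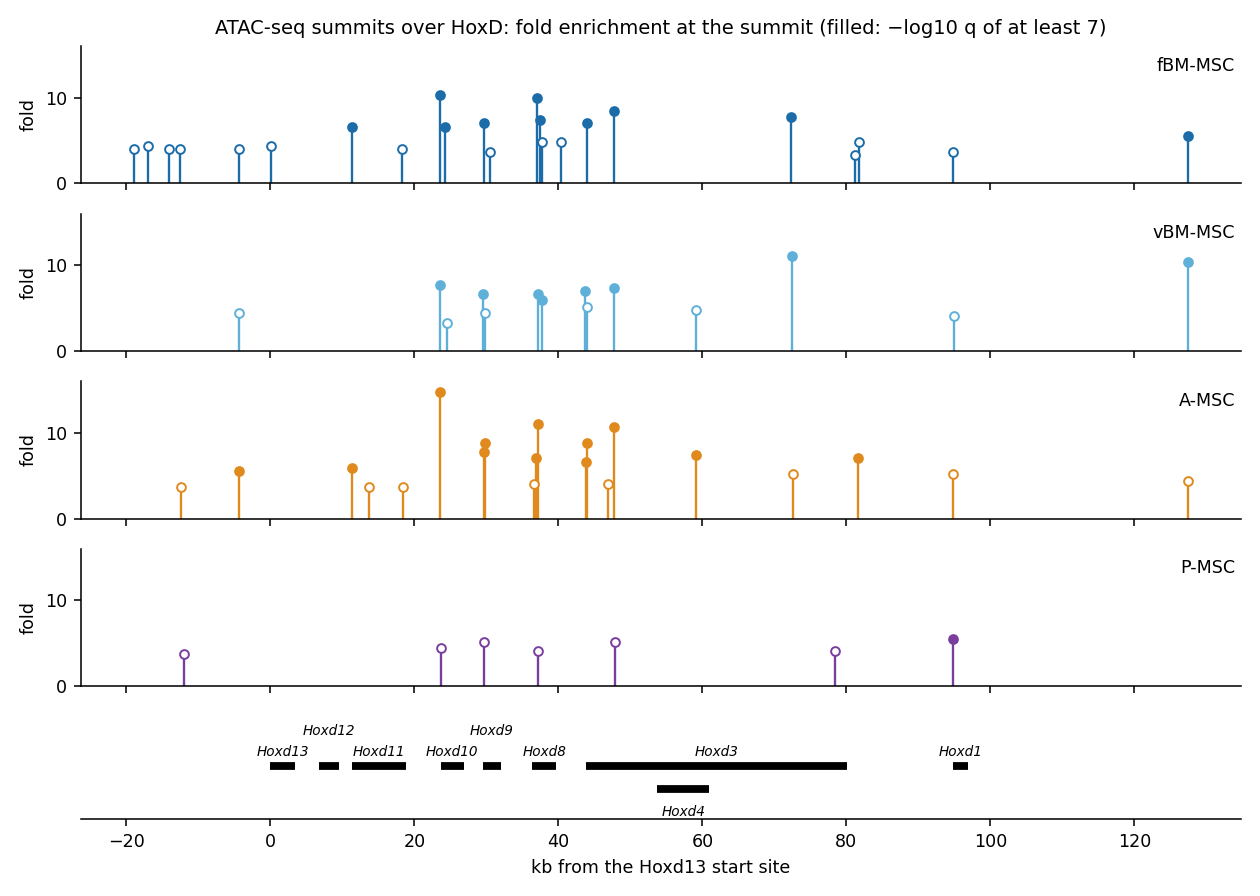
Fold enrichment of every ATAC-seq summit listed from 20 kb before Hoxd13 to 60 kb after Hoxd1 (y axis) against the distance from the Hoxd13 start in kb (x axis), 1 panel per tissue, with the HoxD genes below. Filled points have a −log10 q of at least 7; the tallest is the Hoxd10 promoter in A-MSCs at 14.72, and P-MSCs have 1 filled point, at Hoxd1.

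Outside the promoters, from 20 kb before Hoxd13 to 60 kb after Hoxd1, 2 regions had their highest fold in vBM-MSCs. A region 72.5 kb from the Hoxd13 start, in a Hoxd3 intron, was highest in vBM-MSCs at 11.04 (7.45 to 15.76), followed by fBM-MSCs at 7.73 and A-MSCs at 5.15 (2.82 to 8.64), and was not listed in P-MSCs. An intergenic region 127.4 kb from the Hoxd13 start, between Hoxd1 and the housekeeping gene Mtx2, gave 10.3 in vBM-MSCs (6.85 to 14.89), 5.52 in fBM-MSCs and 4.41 in A-MSCs and was not listed in P-MSCs either. In both regions the vBM-MSC interval overlapped those of fBM-MSCs and A-MSCs. Within Hoxd4, a summit in its 5′ UTR had a fold of 7.36 in A-MSCs and 4.78 in vBM-MSCs. In an exon of Haglr, an antisense RNA between Hoxd3 and Hoxd1 with 4 counts in all, the fold was 6.99 in A-MSCs and 4.78 in fBM-MSCs. Around the first Hoxd11 start a summit was listed in fBM-MSCs (6.62) and A-MSCs (5.89) alone. The 250 bases before that start (chr2:74679308-74679557) are shown because they hold a match to the AP-1 motif, in capitals. The windows around the 2 regions that were highest in vBM-MSCs (chr2:74740627-74740827 and chr2:74795573-74795773) follow, with CpG in capitals.
Hoxd11: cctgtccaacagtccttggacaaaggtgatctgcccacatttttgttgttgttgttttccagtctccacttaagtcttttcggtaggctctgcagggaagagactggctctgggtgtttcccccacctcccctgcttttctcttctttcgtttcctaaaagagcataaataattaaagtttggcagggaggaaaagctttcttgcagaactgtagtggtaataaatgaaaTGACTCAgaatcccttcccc
Hoxd3 intron: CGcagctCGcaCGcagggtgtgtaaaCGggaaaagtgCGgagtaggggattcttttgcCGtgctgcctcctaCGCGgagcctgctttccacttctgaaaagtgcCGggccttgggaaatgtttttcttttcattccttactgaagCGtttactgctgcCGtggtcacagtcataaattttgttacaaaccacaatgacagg
Hoxd1-Mtx2: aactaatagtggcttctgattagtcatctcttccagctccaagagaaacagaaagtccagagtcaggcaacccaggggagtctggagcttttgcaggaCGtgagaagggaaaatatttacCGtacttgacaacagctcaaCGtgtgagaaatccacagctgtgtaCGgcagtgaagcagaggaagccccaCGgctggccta
The motifs searched within 150 bases of a summit, on both strands, were AP-1 (TGANTCA), a joint PBX-HOX site (TGATTNAT), a HOX13 site (TTTTATNG) and the CTCF core consensus. Of the 11 regions over the threshold, 2 held AP-1, at the Hoxd11 start and in the Hoxd10 coding exon, and none held any of the others. Over all summits at this threshold AP-1 was found near 39.42%, 30.03%, 35.4% and 40.24% in fBM-MSCs, vBM-MSCs, A-MSCs and P-MSCs. The shares for the other motifs ran from 5.57% to 7.41% for PBX-HOX, from 3.41% to 4.0% for HOX13 and from 1.48% to 2.06% for the CTCF core consensus. Among the promoter windows of the HoxD genes, PBX-HOX matched at the second Hoxd11 start and HOX13 at Hoxd4, where 3.22% and 4.14% of all promoter windows held them.

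On either side of the cluster lie gene deserts with known limb enhancers. On the 5′ side, over 755.8 kb from Atp5g3 to Hoxd13, fBM-MSCs had 9 summits over the threshold, vBM-MSCs 5, A-MSCs 6 and P-MSCs 4. Of 12 regions there, 1 passed in all tissues, at -89.2 kb, 32 bases from the start of 4930445N08Rik and next to that of Lnp (Lnpk), with folds of 16.19, 27.96, 25.75 and 32.0. A region at -251.9 kb from Hoxd13 had the highest fold of the others, 23.91 in fBM-MSCs, against 4.42 in vBM-MSCs and 3.68 in A-MSCs, and was not listed in P-MSCs. Its centre (chr2:74416184-74416384, intergenic) hold an AP-1 match, in capitals.
fBM-MSC distal: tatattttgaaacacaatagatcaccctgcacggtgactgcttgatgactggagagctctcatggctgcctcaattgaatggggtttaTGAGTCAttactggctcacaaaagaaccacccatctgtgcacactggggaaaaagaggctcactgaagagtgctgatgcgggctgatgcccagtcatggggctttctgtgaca
Regions at -421.5 kb and -568.2 kb had folds of 12.14 and 9.93 in fBM-MSCs and were in no other list. On the 3′ side, over 894.0 kb from Hoxd1 to Hnrnpa3, the numbers were 21, 24, 22 and 20 in the same order of tissues, so the lung list was not low there as it was in HoxD. Within it, a region 556.5 kb from the Hoxd13 start had folds of 17.66, 34.22, 11.04 and 4.78. Another, at 732.4 kb, had 14.35, 19.87, 8.83 and 5.15. Which gene any of these regions acts on was not tested.

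**Figure D5:**
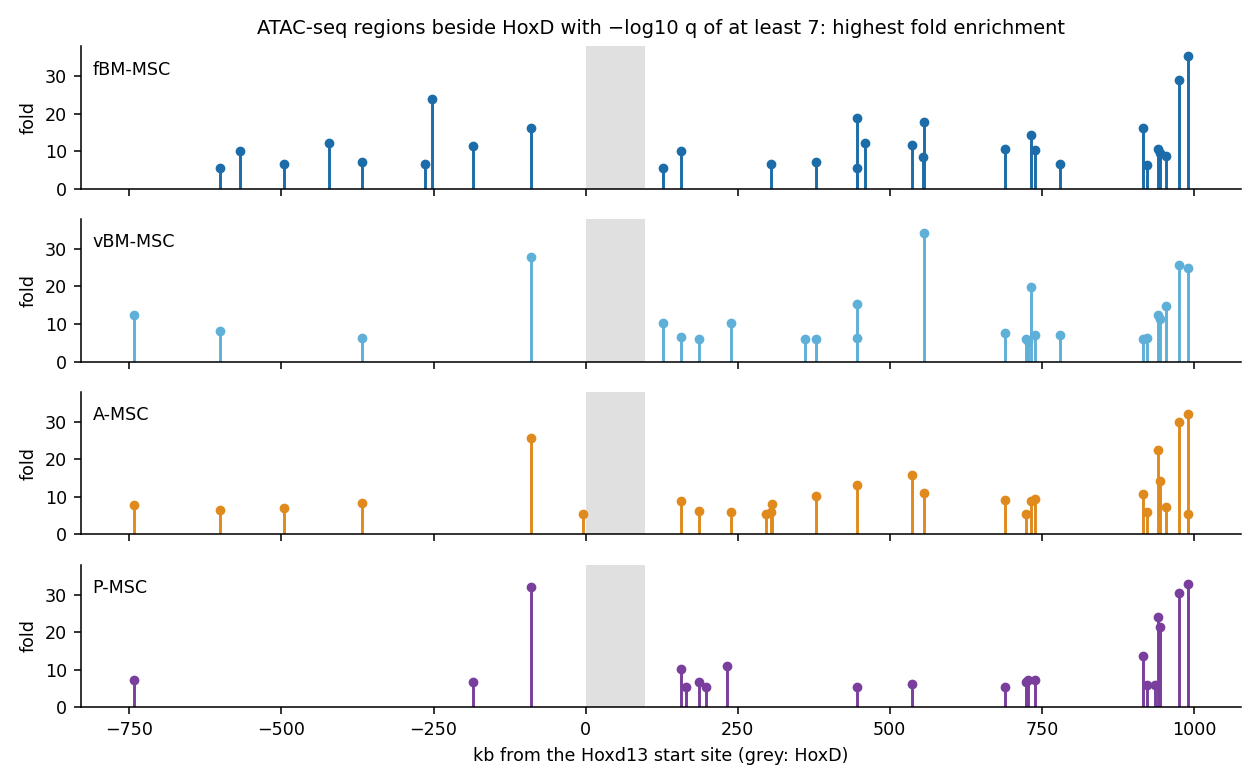
Highest fold enrichment (y axis) of each ATAC-seq region with −log10 q of at least 7 in that tissue, beside HoxD, against the distance from the Hoxd13 start in kb (x axis); grey marks the cluster. On the left, fBM-MSCs have the tall region at -251.9 kb that the other tissues lack at this threshold; on the right all 4 tissues have regions throughout.

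The genes around HoxD and its regulators were set beside it. Of 11 neighbours in the files, 8 were tested and 6 called across the 4 tissues by edgeR, against the 60.6% of all genes. Lnp, which shares limb enhancers with HoxD, stood at 6.02, 7.89, 8.53 and 10.54 TPM in fBM-MSCs, vBM-MSCs, A-MSCs and P-MSCs, with adjusted p = 0.00557 by edgeR across the 4 tissues. Mtx2, on the other side, stood at 109.9, 103.2, 118.08 and 120.04 TPM, with adjusted p = 0.149 by edgeR across the 4 tissues. Evx2, the homeobox gene next to Hoxd13, had no count. Lnp and Mtx2 thus had transcripts in all 4 tissues, Haglr in 1 A-MSC library, and Hoxd3os1 in fBM-MSCs and A-MSCs. Hnrnpa3, Chn1, Agps, Nfe2l2 and Atp5g3 were called and Atf2 was not. Smart-seq2 libraries carry no strand, so Hoxd3 and its antisense RNA cannot be told apart where they overlap, nor can Hoxd8 and the antisense gene Gm38462. Hoxd4 also overlaps Hoxd3 on the same strand. The genes Hoxd10 and Hoxd11 are listed as overlapping on the same strand, but their curated transcripts do not overlap.

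Of 9 TALE cofactors, the homeobox partners of Hox proteins, 3 were called across the 4 tissues, beside 60.6% of all tested genes, and 5 were called with DESeq2 and without vBM-MSC replicate 2. Meis1 stood at 2.61, 1.06, 7.73 and 11.16 TPM in fBM-MSCs, vBM-MSCs, A-MSCs and P-MSCs and Meis3 at 25.05, 24.06, 20.43 and 16.49 TPM. Among 30 Polycomb genes, 17 were called, a share near the 60.6% of all tested genes, with Ezh2, the methyltransferase of the mark on silent Hox genes, at 5.79 ± 0.42, 5.76 ± 2.14, 12.8 ± 2.04 and 43.59 ± 1.42 TPM. The P-MSC mean of Ezh2 was above those of the other tissues, and the gene is also a gene of dividing cells. Phf19 (0.37, 0.03, 0.36 and 2.44 TPM) and Pcgf5 (16.31, 23.42, 32.02 and 43.85 TPM) also had their highest mean in the lung, whereas Phf1 (8.17, 12.18, 3.63 and 4.59 TPM) did not. In P-MSCs against fBM-MSCs 13 of 30 Polycomb genes were higher and 4 lower, with a median log2 fold change (fBM-MSCs minus P-MSCs) of -0.24, beside 0.02 over all tested genes, of which 23% were higher in P-MSCs and 24.7% lower. Against vBM-MSCs, 9 were higher in P-MSCs and 4 lower, with a median of -0.01 (0.03 over all tested genes, 17.7% higher and 21% lower), and against A-MSCs 8 were higher and 2 lower, with a median of -0.24 (-0.01 over all, 14.9% higher and 16% lower). Of 10 Trithorax and H3K27 demethylase genes, which act against Polycomb, 7 were called, also near the 60.6% of all tested genes. In P-MSCs 5 were higher and none lower than in fBM-MSCs (median log2 fold change -0.51, other tissue minus P-MSCs), 4 higher and none lower than in vBM-MSCs (-0.55) and 2 higher and none lower than in A-MSCs (-0.50), beside the shares and medians of all genes given for Polycomb. Wdr5 (16.8, 24.34, 33.13 and 43.91 TPM) and Dpy30 (56.0, 54.73, 95.45 and 136.88 TPM) had their highest mean in the lung too. Men1 stood at 18.93 TPM in P-MSCs and at 8.65 to 12.98 elsewhere, and Kdm6b at 1.30 TPM in fBM-MSCs and 2.90 to 2.97 elsewhere. The part of any of these genes in the HoxD levels was not tested.

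Of 10 genes for CTCF and cohesin, which fold the cluster into its regulatory domains, 7 were called, beside the same 60.6%. Smc1a, Smc3, Rad21 and Nipbl had their highest tissue mean in P-MSCs, at 25.61, 16.89, 10.08 and 3.45 TPM. Of the 10 genes, 6 were higher in P-MSCs than in fBM-MSCs and none lower, with a median log2 fold change (fBM-MSCs minus P-MSCs) of -0.75, where 23% of all tested genes were higher in P-MSCs, 24.7% lower, and their median was 0.02. Among 13 genes that induce Hox genes in the embryo or act in the signals that do so, 7 were tested and 6 called, beside 60.6% of all tested genes. Aldh1a2, which makes retinoic acid, stood at 3.68, 0.87, 22.82 and 19.62 TPM, and Cyp26b1, which degrades it, at 1.32, 8.19, 0.24 and 0.03 TPM. Tgfbr1, a receptor of Gdf11, stood at 6.75, 12.68, 16.54 and 4.82 TPM and Rarg, a retinoic acid receptor, at 22.93, 21.24, 8.92 and 13.39 TPM. Of the 15 genes of the limb bud network, 13 were tested and 11 called, beside 60.6% of all tested genes. Shox2, a gene of the proximal limb, stood at 21.93 TPM in fBM-MSCs and at most 0.55 TPM elsewhere. Grem1, a BMP antagonist, and Msx2 were lowest in A-MSCs, at 27.09 and 4.01 TPM against 60.8 to 165.9 and 22.06 to 26.62 TPM. Tbx4, a hindlimb and lung gene, stood at 1.14, 0.01, 0.02 and 7.16 TPM. None of these 4 limb genes had its lowest mean in the lung, as Hoxd8 did. The order of Hoxd8 among the other tissues was not resolved.

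The genes whose pattern over the 11 libraries was most like that of Hoxd8, by the root mean square difference of centred log2(TPM + 1), were Tgfb2 (0.123), Smim1 (0.219), Pcdh1 (0.22), Mmp23 (0.238) and Gm2a (0.284). The median of 12506 genes was 0.94, and a flat pattern would score 0.83. Tgfb2, a TGF-beta ligand, stood at 14.7, 17.05, 16.77 and 4.07 TPM in fBM-MSCs, vBM-MSCs, A-MSCs and P-MSCs. It was lower in the lung but not at 0, unlike Hoxd8. On this scale the tissue means of Hoxd8 spanned 1.88 log2 units and those of Tgfb2 1.83, so the likeness depends on the pseudocount of 1.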

How the data were processed

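RNA-seq and ATAC-seq of cultured mouse MSCs were taken from the processed files. The authors ran RSEM on Smart-seq2 reads (mm10) and deposited, per gene, expected counts, which are not normalized, and TPM, scaled for length and to a fixed sum. For ATAC-seq the authors used Trim Galore, Bowtie (unique alignments), Picard to remove duplicates, the +4/−5 shift of Tn5 reads, the ENCODE blacklist and MACS2 with --nomodel, --nolambda and --call-summits on the pooled samples of a tissue; the deposited lists give each summit's fold enrichment (a ratio), −log10 q and offset from the region's start. Versions are not given in the sources used here.

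Depth was 19569650 to 40517739 expected counts per library. Counts were rounded and fitted with edgeR 4.0.16 in R 4.3.3 (TMM factors, the quasi-likelihood F test), as 1 model with tissue over 11 libraries, for genes with at least 1 CPM in at least 2 libraries. P-values were Benjamini-Hochberg adjusted over 12509 genes and called under 0.05. Intervals are 95%. The 4 tissues came from the same 3 mice; the sources do not say which libraries came from one animal, and the p-values treat libraries as independent. Correlations of deviations between libraries of the same number were -0.028 to 0.125 over 15 pairs, so numbers were not used as pairs. Alternatives used DESeq2 1.42.0 and limma 3.58.1. The bounds without 1 library were added after seeing the data. The count test was tested on simulated data.

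Summits were placed on RefSeq curated transcripts of GRCm38.p6; promoters are within 1 kb of a start. All 9 genes matched the RefSeq promoter table. The Python steps used Python 3.11.15, pandas 2.3.3, scipy 1.17.1 and pysam. FPKM was not used. The 9 members are all named; from each other list up to 4 genes called across the 4 tissues with the widest range of mean log2(TPM + 1) are described, and the neighbours are all named, except that 1 result is not reported here. The members and lists were chosen with earlier results of these data known.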

Additional observations from a re-analysis of the deposited data

How the results depend on the processing

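The number of HoxD genes called against P-MSCs was 3 in each comparison. Without 1 library at a time it ran from 2 to 3, since Hoxd10 fell under the filter without fBM-MSC replicate 1 or vBM-MSC replicate 2. Across the 4 tissues it was also 2 without P-MSC replicate 1 and with limma on log2(TPM + 1), where Hoxd10 was lost. In fits of 2 tissues alone it was 2 for fBM-MSCs, where Hoxd8 and Hoxd9 passed the filter. It was 1 for vBM-MSCs and 1 for A-MSCs, because only Hoxd8 passed the filter there. With limma on log2(TPM + 1), fBM-MSCs against A-MSCs gave 1 call. The check gave low correlations for same-numbered libraries, but with 2 or 3 libraries per tissue it cannot exclude that they share a mouse. With the replicate block the same 3 genes were called against P-MSCs. The count of all genes called between fBM-MSCs and vBM-MSCs fell from 1601 to 1326. That count was 1082 without fBM-MSC replicate 2, 305 in the fit of these 2 tissues alone and 2184 with DESeq2, so the background shares of this comparison depend on the setting.

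Among fBM-MSCs, vBM-MSCs and A-MSCs edgeR made no call, and several small differences changed sign. Over the fits without 1 library, the log2 fold change of Hoxd8 ran from -0.31 to 0.15 for fBM-MSCs against vBM-MSCs, from -0.41 to 0.02 for fBM-MSCs against A-MSCs and from -0.29 to 0.08 for vBM-MSCs against A-MSCs. For vBM-MSCs against A-MSCs it was 0.03 and 0.04 with limma at pseudocounts of 1 and 0.1, and 0 with the replicate block. Hoxd9 ran from -1.52 to 0.45 for vBM-MSCs against A-MSCs, and Hoxd10 from -0.37 to 0.72 for fBM-MSCs against vBM-MSCs and from -0.05 to 1.19 for vBM-MSCs against A-MSCs. Across the 4 tissues, DESeq2 called 5 TALE cofactors where edgeR called 3, and 5 were called without vBM-MSC replicate 2, while HoxB fell from 5 to 3 without fBM-MSC replicate 2.

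With a −log10 q of at least 20, the HoxD summits were 1, 1, 3 and 0 in fBM-MSCs, vBM-MSCs, A-MSCs and P-MSCs, and the HoxD promoters with one 1, 0, 2 and 0. With all deposited summits the summits were 17, 12, 17 and 6. Asking for an overlap of 50% in shared regions, or for a summit within 500 bases of a start, changed none of these counts. The cause of these changes was not tested. Counts of at most 126 per gene and library limit the RNA differences, and the summits within the cluster rest on 40 steps or fewer.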
